A study of Mus musculus with 2 samples.

Results

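The mouse genome holds imprinted microRNA (miRNA) genes outside the large Dlk1-Dio3 cluster of chromosome 12, and 5 of them are described here: Mir335 in Mest, Mir296 and Mir298 at the Gnas locus, Mir483 in Igf2 and Mir675 in H19. They were chosen by symbol in the GENCODE M21 annotation, by a rule that uses no measured value, and are 5 of the 2202 miRNA genes in the deposited tables. The tissue was left cerebral cortex of B6CASTF1/J mice, the first-generation hybrid of C57BL/6J and CAST/EiJ, at 18 to 20 months of age, and RNA shorter than 30 nt was sequenced. There was 1 group of 2 libraries, biological replicates 1 and 2, with no treatment and no other genotype, so values were compared between genes and between libraries only. Both tissue records point to the same donor record and the labels conflict on the sex of the mice, so the spread between libraries may be partly technical and sex was not used.

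In genomic imprinting, a mark laid down in the germ line, usually DNA methylation, sets which parental copy of a gene is expressed. The miRNAs inside such a transcription unit are usually expressed from the same parental copy as their host. Mest encodes a hydrolase-like protein, Igf2 a fetal growth factor, and Nespas is the antisense RNA of the Gnas locus. These genes are known as paternally expressed in most tissues, and H19, a noncoding RNA, as maternally expressed. Igf2 and H19 share enhancers and an imprinting control region and are most active before birth. In the brain, Igf2 is known mainly from the choroid plexus and the meninges. The counts did not separate the C57BL/6J and CAST/EiJ alleles, so parental origin was not measured here.

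The mature strands of the 5 hairpins, from RefSeq (GRCm38.p6, the build called mm10), are shown because each count stands for a whole hairpin, both strands together. Capitals mark the seed, bases 2 to 8, which guides pairing with target transcripts.
mmu-miR-335-5p: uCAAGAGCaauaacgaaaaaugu
mmu-miR-335-3p: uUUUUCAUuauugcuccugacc
mmu-miR-296-5p: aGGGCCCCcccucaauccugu
mmu-miR-296-3p: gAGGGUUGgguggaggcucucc
mmu-miR-298-5p: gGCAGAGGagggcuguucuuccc
mmu-miR-298-3p: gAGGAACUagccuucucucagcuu
mmu-miR-483-5p: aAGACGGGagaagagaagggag
mmu-miR-483-3p: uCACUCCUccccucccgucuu
mmu-miR-675-5p: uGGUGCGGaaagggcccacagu
mmu-miR-675-3p: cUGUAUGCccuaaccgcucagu

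All 5 hairpins matched a RefSeq entry at the same coordinates. None of the 10 mature strands shared its 7-base seed with a strand of another gene, whereas 32.0% of all 1738 mouse strands in the table did. With a 6-base seed, bases 2 to 7, 4 of the 10 strands shared it with another gene, against 55.5% of all strands. Those other genes were low or without reads: Mir5621 had 4 reads in replicate 1 and 22 in replicate 2, Mir6986 had 10 and 24, and Mir7646 and Mir3110 had none. By their 7-base seeds, no 2 of the 5 genes belong to a common seed group.

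The loci differ in how the hairpin lies in its host. Mir335 (ENSMUSG00000065501.1) is at chromosome 6, 30741299 to 30741396, plus strand, and was intronic in all 7 Mest transcripts that span it. Mir483 (ENSMUSG00000070140.1) is at chromosome 7, 142654924 to 142654996, minus strand, and was intronic in all 7 spanning Igf2 transcripts and in 1 transcript of the overlapping gene Gm49394. Mir675 (ENSMUSG00000076275.1) is at chromosome 7, 142577064 to 142577147, minus strand, and was exonic in 3 H19 transcripts and intronic in 1. It lies 77.8 kb from Mir483.

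Mir296 (ENSMUSG00000065521.1) is at chromosome 2, 174267047 to 174267125, minus strand, and Mir298 (ENSMUSG00000065410.1) at chromosome 2, 174267504 to 174267585, minus strand. No other annotated gene overlapped either hairpin. They are 378 bases apart and share the strand of Nespas, whose annotated end lies 13651 bases upstream of Mir298. Gnas, which encodes the stimulatory G-protein alpha subunit, runs on the opposite strand. The annotation thus places both hairpins beyond Nespas rather than inside it.

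**Figure D1:**
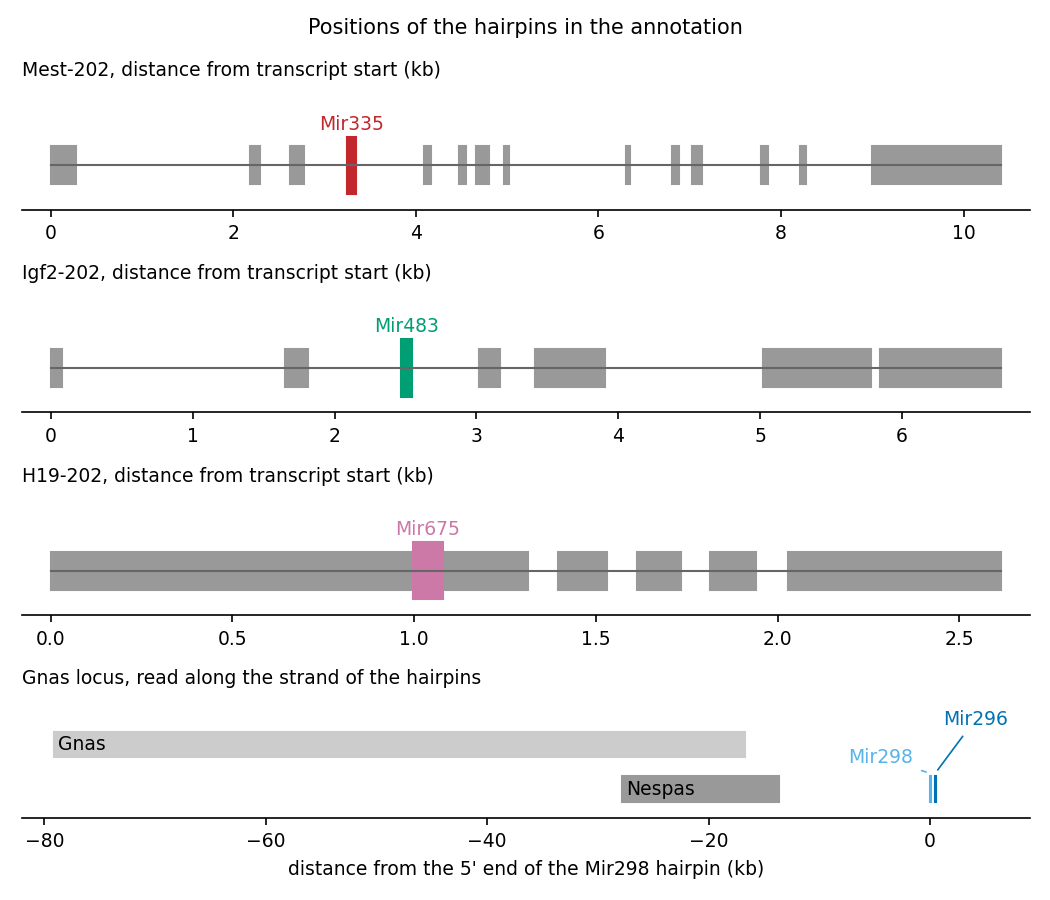
Positions of the 5 hairpins (coloured) in the annotation, with distance in kb on each horizontal axis. The upper 3 maps show the host transcript with the most exons (grey boxes), and the lowest shows the whole Gnas and Nespas genes, with Mir298 and Mir296 lying 378 bases apart and outside both.

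Mir335 was the most abundant of the 5 genes, Mir298 the next, Mir296 and Mir483 were low, and Mir675 had no read in either library. Levels are in CPM, the reads on the gene's strand scaled to a common total of such reads over all miRNA genes of that library. These sense miRNA reads numbered 2381663 in replicate 1, of 8041772 reads in all, and 4436398 in replicate 2, of 12239366. A read covers 1 mature strand, so CPM was not divided by hairpin length. The intervals given for single libraries are 95% exact binomial intervals and cover counting error only, since PCR reads without molecular identifiers are not independent molecules. Each ± is the SD of the 2 libraries.

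Mir335, whose human counterpart is known as a suppressor of breast cancer metastasis, had 11938 reads in replicate 1 and 14092 in replicate 2. That was 5012 CPM (4923 to 5103) in replicate 1 and 3176 CPM (3124 to 3229) in replicate 2, a mean of 4094 ± 1298 CPM (n = 2). Replicate 1 was the higher library and the counting intervals did not overlap. Mir335 ranked 44 of 2202 genes by mean CPM, and 98.0% of genes lay below it.

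Mir298, known in mouse to repress Bace1, the beta-secretase of amyloid processing, had 2098 reads in replicate 1 and 2482 in replicate 2. Its level was 881 CPM (844 to 919) in replicate 1 and 559 CPM (538 to 582) in replicate 2, a mean of 720 ± 227 CPM (n = 2), rank 111. As for Mir335, replicate 1 was the higher library.

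Mir296, known to target Nanog in mouse embryonic stem cells and, in human, to rise in tumour endothelium, had 181 reads in replicate 1 and 999 in replicate 2. Its level was 76.0 CPM (65.3 to 87.9) in replicate 1 and 225 CPM (211 to 240) in replicate 2, a mean of 151 ± 105 CPM (n = 2), rank 178. Here replicate 2 was the higher library, opposite to its neighbour Mir298.

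Mir483, an intronic product of Igf2 whose human 3p strand is known to repress the apoptosis gene BBC3, had 172 reads in replicate 1 and 326 in replicate 2. Its level was 72.2 CPM (61.8 to 83.9) in replicate 1 and 73.5 CPM (65.7 to 81.9) in replicate 2, a mean of 72.9 ± 0.894 CPM (n = 2), rank 220. The counting intervals of the 2 libraries overlapped.

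Mir675, the product of H19 that restrains growth of the mouse placenta by targeting Igf1r, was without a read in both libraries. A count of 0 allows up to 3 reads, a level of 1.26 CPM in replicate 1 and 0.676 CPM in replicate 2, so Mir675 was not detectable at this depth. Of all miRNA genes, 1474 had no read in either library and 728 had at least 1.

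In the order of levels, the 2 libraries of Mir335 lay above both libraries of Mir298, and those of Mir298 above both of Mir296. The counting intervals of Mir296 and Mir483 overlapped in replicate 1, at 76.0 CPM (65.3 to 87.9) and 72.2 CPM (61.8 to 83.9). In replicate 2 they did not overlap, and Mir296 was higher, at 225 CPM (211 to 240) against 73.5 CPM (65.7 to 81.9). Both genes lay above the limit for Mir675. With 2 libraries no test between these levels was made. Markers of other cells were present beside the neuron markers in both libraries. The neuron list (5 of 5 with reads) summed to 84003 CPM in replicate 1 against 62414 CPM in replicate 2. Nearly all of it came from 2 genes that went opposite ways: Mir132 stood at 69646 CPM in replicate 1 against 43349 CPM in replicate 2, and Mir128-1 at 14354 CPM against 19064 CPM. Each of the 3 Mir124a genes, a defining neuronal miRNA present in several near-identical copies, stood at 1.26 CPM or lower. The list of the choroid plexus and ciliated cells (4 of 4) summed to 1084 CPM in replicate 1 against 738 CPM in replicate 2. The mural list (4 of 4) summed to 10929 CPM in replicate 1 against 5800 CPM in replicate 2, with Mir143 and Mir145a higher in replicate 1 and the low Mir214 and Mir199b higher in replicate 2. Mir143 alone stood at 10428 CPM in replicate 1 against 5447 CPM in replicate 2. The blood list (3 of 3) summed to 227 CPM in replicate 1 against 99.4 CPM in replicate 2, with Mir486 about level. The part of these cells in the levels of the 5 genes was not tested, and fewer cells of a type cannot be told apart from less RNA per cell.

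**Figure D2:**
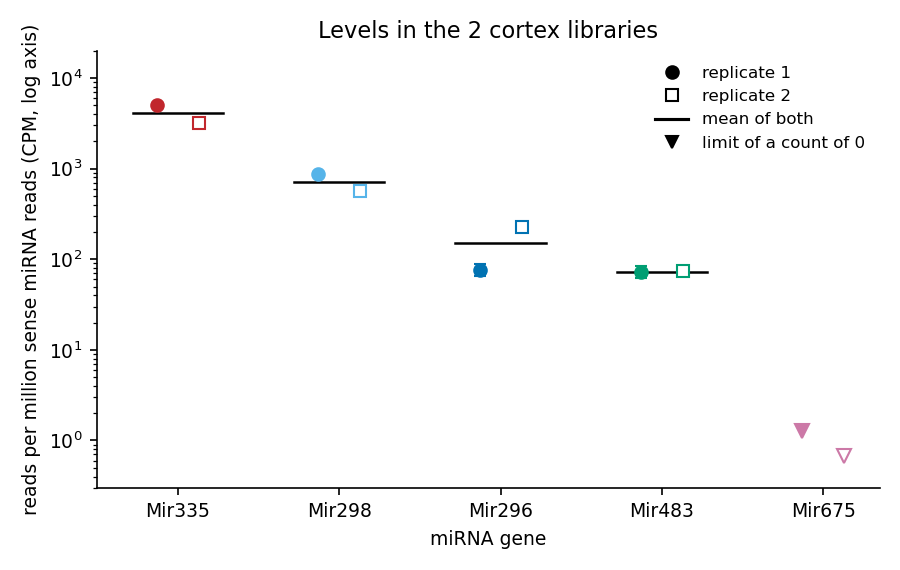
Level of each gene in CPM on a log axis, with a filled circle for replicate 1, an open square for replicate 2, a black line for their mean and whiskers for 95% exact binomial intervals, mostly hidden by the symbols. Triangles mark the level of 3 reads, taken as the limit of a count of 0, for Mir675. Mir335 and Mir298 are higher in replicate 1, Mir296 is higher in replicate 2, and Mir483 is level.

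Together the 5 genes held 14389 reads in replicate 1 and 17899 in replicate 2. This was 0.604% (0.594 to 0.614) of sense miRNA reads in replicate 1 and 0.403% (0.398 to 0.409) in replicate 2, a mean of 0.504% ± 0.142 (n = 2). Mir335 made up 83.0% of the reads of the 5 genes in replicate 1 and 78.7% in replicate 2, and Mir298 14.6% and 13.9%. Mir296 made up 1.26% in replicate 1 and 5.58% in replicate 2, and Mir483 1.2% and 1.82%. Mir335 thus carried most of the signal of these loci in both libraries.

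The libraries were compared gene by gene with an exact binomial test, two-sided, on TMM-scaled library sizes. This test takes sampling of reads as the only source of noise, and with 1 group it says nothing of conditions. Of the 5 genes, 4 had the 10 reads in total needed for testing and Mir675 did not. Of these 4, 3 passed at an adjusted p of 0.05, set against 52.1% of the 472 genes tested, so passing was common. Mir335 and Mir298 passed with the higher value in replicate 1, as did 24.6% of tested genes, and Mir296 with the higher value in replicate 2, as did 27.5%.

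Mir335 was higher in replicate 1 by a log2 ratio of 0.69 ± 0.02 (counting SE; binomial adjusted p = 2.66e-311), and Mir298 by 0.68 ± 0.04 (3.03e-55), both 1.61-fold. Mir296 had a log2 ratio of -1.54 ± 0.12 (adjusted p = 1.49e-48), a 2.91-fold difference the other way. Mir483 had a log2 ratio of 0.00 ± 0.14 (adjusted p = 1). For comparison, the median difference over tested genes was 1.38-fold in either direction.

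A test with a spread between libraries was run as an alternative. It sets 1 library against 1, so a call lost there does not show that the libraries were alike. The exact test of edgeR, whose common dispersion was estimated from the same libraries (biological coefficient of variation 0.351 over 472 genes), called 0 of the 4 genes and 2 of all genes tested, which is 0.424%. The log2 ratios were as before to 2 decimals. The adjusted p was 0.803 for Mir296 and 1 for Mir335, Mir298 and Mir483. Without adjustment, Mir296 had p = 0.0411 in the same exact test, as 1 of 28 genes under 0.05 among the 472 tested.

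**Figure D3:**
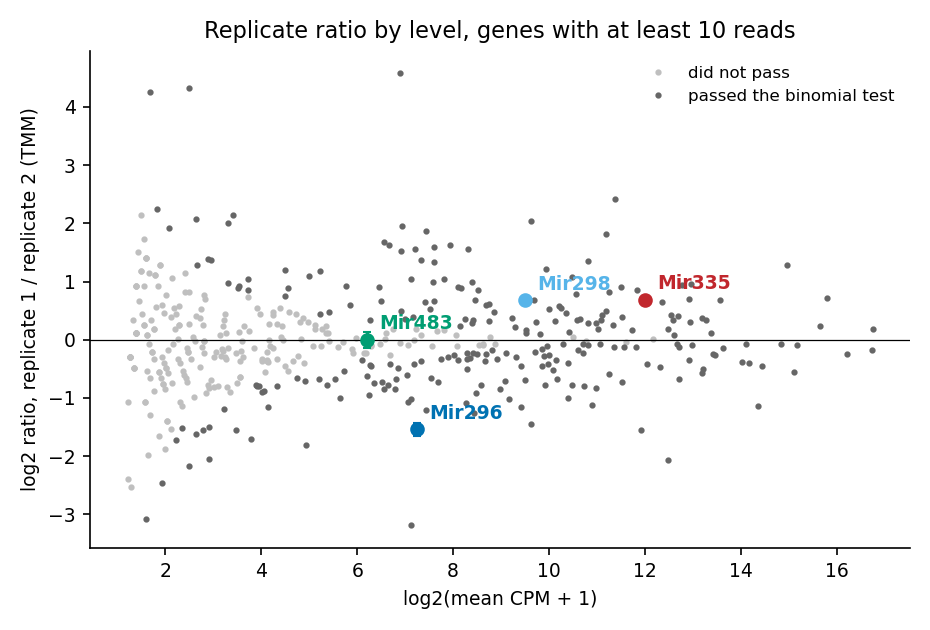
Log2 ratio of replicate 1 to replicate 2 against log2(mean CPM + 1) for the miRNA genes with at least 10 reads in total and a read in each library. Dark points passed the exact binomial test, light points did not, and the coloured points with counting SE are Mir335 and Mir298 above 0, Mir483 at 0 and Mir296 at -1.54.

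Mir296 and Mir298, the adjacent hairpins of the Gnas locus, stood in unlike ratios in the 2 libraries, a comparison that needs no library total. They are shown with both mature strands in capitals.
Mir296: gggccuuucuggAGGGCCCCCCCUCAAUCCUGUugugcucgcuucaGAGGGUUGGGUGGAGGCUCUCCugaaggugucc
Mir298: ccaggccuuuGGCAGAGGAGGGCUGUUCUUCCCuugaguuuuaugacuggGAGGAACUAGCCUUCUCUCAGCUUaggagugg

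Mir296 took 7.94% (6.86 to 9.13) of the reads of the pair in replicate 1 and 28.7% (27.2 to 30.2) in replicate 2. There were 0.0863 reads of Mir296 per read of Mir298 in replicate 1 and 0.402 in replicate 2. The odds ratio, replicate 1 over replicate 2, was 0.214 (95% exact conditional interval 0.180 to 0.254), and Fisher's exact test, two-sided, gave p = 1.24e-89 for the reads of these 2 libraries. The difference lies beyond the counting noise of independent reads. However, PCR reads without molecular identifiers are not independent, and the comparison rests on 1 library against 1.

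To see how usual such a split is, neighbouring miRNA genes within 10 kb on the same strand were compared, a comparison added after the values were seen. Only genes with at least 10 reads in total and a read in each library entered, and each was paired with the next such gene. Over 110 pairs the median difference between the log2 ratios of both genes was 0.67. The difference for Mir296 and Mir298 was 2.22, rank 3 of 110. The 2 pairs that differed more, Mir667 with Mir376c (2.56) and Mir410 with Mir3072 (2.45), both belong to the Dlk1-Dio3 cluster. That cluster supplied many of the 110 pairs, also ones that differed little, such as Mir540 with Mir665 (0.04) and Mir379 with Mir411 (0.05).

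**Figure D4:**
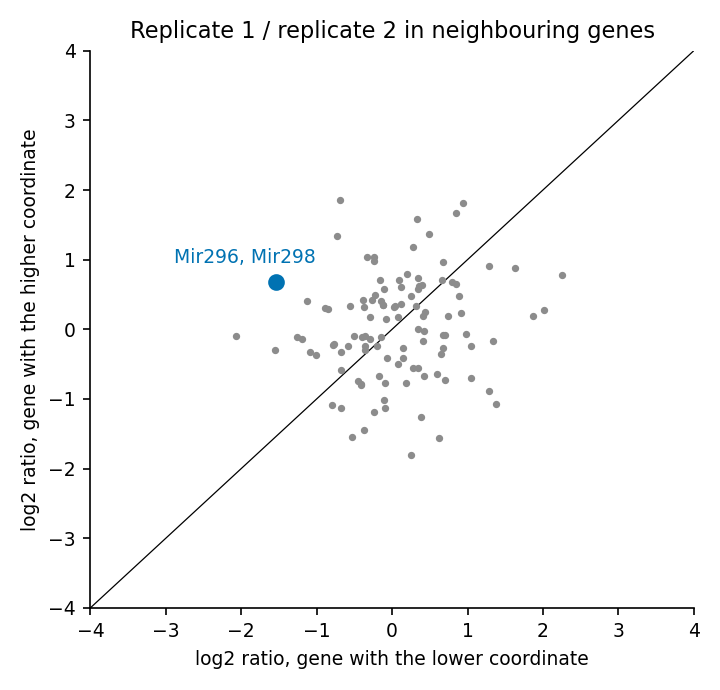
Log2 ratio of replicate 1 to replicate 2 in 110 pairs of neighbouring miRNA genes on the same strand. Only genes with at least 10 reads in total and a read in each library were paired. The gene of lower coordinate is on the horizontal and that of higher coordinate on the vertical axis, with a diagonal where both are equal. Mir296 (-1.54) and Mir298 (0.68), in blue, lie far from the diagonal.

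The hairpins also differed in composition, which was computed from the RefSeq sequences. Mir335 had 42.9% GC and 16.7% of 401 hairpins of tested genes lay below it. Mir298 had 53.7% GC (55.6% of hairpins below), Mir483 58.9% (75.3%), Mir675 63.1% (88.0%) and Mir296 63.3% (88.3%). The undetected Mir675 and the low Mir296 were therefore alike in GC. Mir483 had less GC than Mir296 and also the lower mean level, 72.9 against 151 CPM, so level did not follow GC throughout.

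Folding energy was estimated with RNAfold. The predicted minimum free energy was -44.3 kcal/mol for Mir335, -43.2 for Mir296, -42.7 for Mir298, -33.8 for Mir483 and -56.0 for Mir675. Per base, Mir675 had the lowest value of the 5 at -0.67 kcal/mol, and 1.75% of tested hairpins lay below it. The other genes also lay below the median of tested hairpins, -0.43, but Mir483 and Mir335 only slightly. Mir296 stood at -0.55 (10.2% of tested hairpins below), Mir298 at -0.52 (16.5%), Mir483 at -0.46 (34.9%) and Mir335 at -0.45 (41.9%). These are properties of the sequence, and their part in the counts was not tested.

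Reads mapping to several places were tallied apart from the gene counts and made up 35.6% of replicate 1 and 44.8% of replicate 2. None of the 5 hairpins shared a word of 20 bases, in either orientation, with an annotated transcript of a gene elsewhere in the genome. With 18 bases, Mir296, Mir483 and Mir675 each shared a word with 1 other gene, and Mir335 and Mir298 with none. Reads on the opposite strand numbered 1 at Mir335 in replicate 1 and 0 in every other case, so counting both strands together left the counts of Mir296, Mir298, Mir483 and Mir675 as they were.

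The other imprinted miRNA clusters of the mouse served as a comparison by count and median. The Dlk1-Dio3 cluster, expressed from the maternal chromosome and known for neuronal miRNAs, held 58 genes by position, of which 52 had a read. The Sfmbt2 cluster, in a paternally expressed gene active in the placenta, held 119 genes, of which 11 had a read. Many of these 119 are near-identical numbered copies, such as those of Mir466b, Mir467a and Mir669a. Reads that map to several places are not in the gene counts, so a copy without reads there is not shown to be silent. Of the 5 genes outside these clusters, 4 had a read, and of all 2202 genes 33.1%.

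The median of log2(mean CPM + 1) was 7.24 for the 5 genes, 8.27 for the Dlk1-Dio3 cluster, 0 for the Sfmbt2 cluster and 0 over all genes. Mir335 lay above the median of the Dlk1-Dio3 cluster but below its leading genes, Mir127 at 35059 ± 9856 CPM and Mir433 at 9847 ± 1537 CPM (n = 2 each). By these counts, which leave out reads mapping to several places, Mir335 lay above the leading genes of the Sfmbt2 cluster. These were Mir467d at 343 ± 203 CPM and Mir669c at 268 ± 18.7 CPM. In the binomial test between the libraries, 40 of 51 tested Dlk1-Dio3 genes passed (17 with the higher value in replicate 1). Of 8 tested Sfmbt2 genes, 4 passed (3 with the higher value in replicate 1). Over all tested genes 52.1% passed, and the exact test of edgeR called 0 genes in either cluster. Among 969 miRNA genes within a protein-coding gene on its strand, as Mir335 and Mir483 are, 47.8% had a read and 43 reached 1000 CPM, a level that Mir335 also passed.

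**Figure D5:**
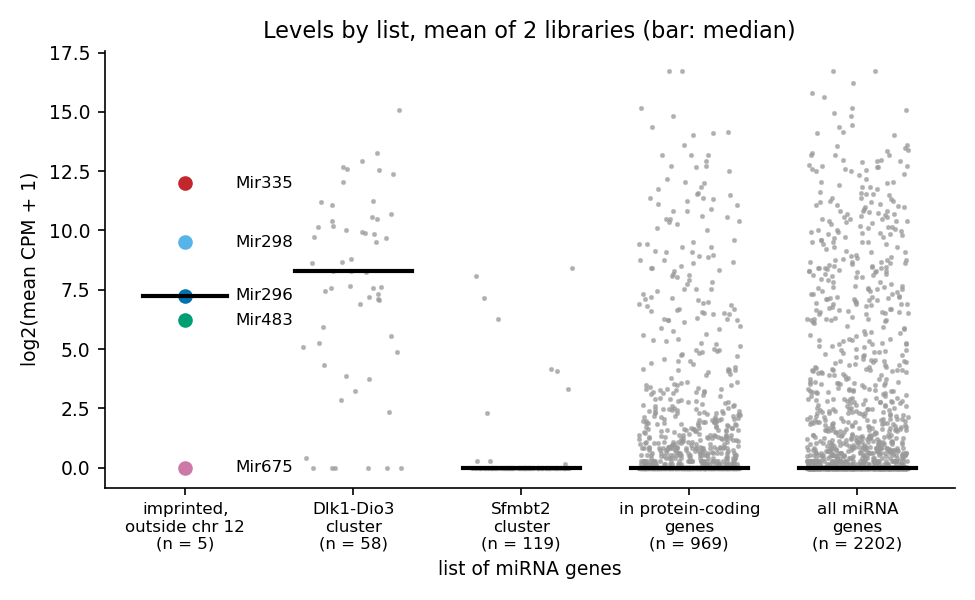
Log2(mean CPM + 1) of every miRNA gene in 5 lists, with a bar at the median of each. The 5 imprinted genes outside chromosome 12 run from 0 for Mir675 up to Mir335 around a median of 7.24, and the Sfmbt2 genes lie mostly at 0.

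The genes nearest to each of the 4 counted genes were found by the distance in log2(CPM + 1) over the 2 libraries, which with 2 points reflects mainly the level. Nearest to Mir335 were Mir98 (5119 CPM in replicate 1 and 3347 in replicate 2, distance 0.08) and Mir100 (distance 0.28). Nearest to Mir296 were Mir3072 (84.4 CPM in replicate 1 and 181 in replicate 2, distance 0.35) and Mir351 (0.37). Mir298 lay nearest to Mir300 (1003 and 639 CPM, distance 0.27) and Mir532 (0.37), and Mir483 to Mir214 (73.5 and 80.5 CPM, distance 0.13) and Mir16-2 (0.14). The value of Mir16-2 is uncertain, since Mir16-1 encodes the same 5p strand. Mir3072 and Mir300 lie in the Dlk1-Dio3 cluster.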

How the data were processed

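The authors deposited, per library, a table of read counts per miRNA gene, not normalized. The labels name the build, mm10, and notes deposited beside the tables name release M21 of the GENCODE annotation. Aligner, trimming and filters: not given in the sources used here. After 4 summary lines, which were left out of library totals, the columns hold counts of both strands, of the gene's strand (used here) and of the opposite strand. All 2202 identifiers matched GENCODE M21.

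Counts were scaled to CPM with a pseudocount of 1 CPM for log values. TMM factors (edgeR 4.0.16, R 4.3.3), 0.990 and 1.01, came from genes reaching 10 reads over both libraries. The same genes were tested with two-sided exact binomial tests (scipy 1.17.1), Benjamini-Hochberg adjusted over all of them, and with edgeR's exact test. Hairpins were folded with RNAfold 2.7.2. The binomial script was first tested on simulated data. Alternatives covered size factors (RLE, DESeq2 1.42.0), library totals, read minimums, pseudocounts, strands and each library alone.

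The genes and lists were chosen with earlier results of these data known. Named are the 5 genes, the 2 genes nearest to each in level, genes with a shared seed, neighbours, and the 2 leading genes of each imprinted cluster. The marker lists were neurons (Mir132, Mir128-1 and 3 Mir124a genes), choroid plexus and ciliated cells (Mir204, Mir449a, Mir34b, Mir34c), mural cells (Mir143, Mir145a, Mir214, Mir199b) and blood (Mir142, Mir451a, Mir486), with Mir126a, at 17007 CPM in replicate 1 against 18138 CPM in replicate 2, for endothelium. Mir219a-2 and Mir338, for oligodendrocytes, summed to 4678 and 3496 CPM (Mir338 3079 and 1778, Mir219a-2 1600 and 1718), Mir122, for liver, stood at 58.4 and 76.0 CPM, and Mir1b and Mir206, for muscle, summed to 17.2 and 20.3 CPM. Genes with a shared 6-base seed and the pairs of neighbours outside the Gnas locus were named after their values were seen.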

Additional observations from a re-analysis of the deposited data

How the results depend on the processing

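The 3 binomial calls (Mir335, Mir296 and Mir298) kept their direction and passed under RLE and DESeq2 size factors, library totals, minimums of 20 reads or none, and both strands together. Under edgeR's exact test 0 of the 5 genes and 2 of all genes passed, against 3 and 246. The log2 ratio of Mir483, which did not pass, changed sign with library totals, at -0.025. With CPM taken over all reads, summary lines included, the mean level was 1318 for Mir335, 232 for Mir298, 52.1 for Mir296 and 24.0 for Mir483. With both strands together the mean levels of the 4 counted genes were higher, 4472 for Mir335, 787 for Mir298, 165 for Mir296 and 79.6 CPM for Mir483. In that column the tables list 197474 reads of replicate 1 and 384735 of replicate 2 as ambiguous, against 0 in the column of the gene's strand. Relative to its mean level, Mir296 moves most when either library is left out, to 225 CPM without replicate 1 and 76.0 CPM without replicate 2. The share of genes below each level depends on the genes ranked: among the 367 with at least 10 reads in each library it was 88.0% for Mir335, 69.8% for Mir298, 51.5% for Mir296 and 40.1% for Mir483. By the same limit of 3 reads, depth limits Mir675 to under 0.440 CPM over both libraries. No paired analysis was possible because the labels give 1 group.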

Other observations

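Ratios between the counted genes need no library total, and all 6 pairs of the 4 counted genes were computed after the values were seen. Mir335, from Mest, and Mir298, from the Gnas locus, kept nearly the same ratio: 5.69 reads of Mir335 per read of Mir298 in replicate 1 and 5.68 in replicate 2, with an odds ratio of 1.00 (95% exact conditional interval 0.941 to 1.07). Mir335 and Mir298 share neither a chromosome nor a seed. A steady ratio is not particular to this pair, since other genes had nearly the same log2 ratio between the libraries. Among them were Mir99a (0.680), Mir145a (0.679) and Mir300 (0.677), against 0.686 for Mir335 and 0.683 for Mir298. Mir335 against Mir296 stood at 66.0 in replicate 1 and 14.1 in replicate 2 (odds ratio 4.68, 3.98 to 5.52). Mir335 against Mir483, both intronic in a protein-coding host, stood at 69.4 in replicate 1 and 43.2 in replicate 2 (odds ratio 1.61, 1.33 to 1.95). Mir298 against Mir483 stood at 12.2 and 7.61 (1.60, 1.32 to 1.96). Mir296 against Mir483 stood at 1.05 in replicate 1 and 3.06 in replicate 2 (0.344, 0.267 to 0.442). With 2 libraries, these are descriptions of the libraries and not relations across samples.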
